A study of Mus musculus with 45 samples.

Results

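The genes described here make cyclic AMP, break it down or carry its signal in the tubule cells of the mouse kidney. There are 10 of them, chosen by name from the 55401 genes of the deposited count tables. They are the adenylyl cyclases Adcy3, Adcy5 and Adcy6, the phosphodiesterases Pde1a, Pde3a and Pde4d, the protein kinase A subunits Prkaca and Prkar1a, and the transcription factors Creb1 and Crem. All 10 were present in both count tables and both tables of TPM (a level scaled for transcript length and for the library), and all 10 passed the filter on low counts in both sexes.

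The study pulled down ribosomes from the kidneys of 45 mice and sequenced the mRNA on them. The tag on the ribosomes, an EGFP-Rpl10a fusion, was switched on by the same Cre recombinase that deleted the floxed genes, so that the pulldown was aimed at tubule cells in which Cre had been active. All mice carried single copies of RosaEGFP-Rpl10a, Pax8rtTA and TetOCre, had been backcrossed for at least 4 generations to C57BL/6J, received doxycycline from postnatal day 28 to 42, and were examined at postnatal day 49 (7 weeks), with few signs of cysts yet. Noncystic mice were Pkd1 fl/+ (8 males and 7 females), Pkd1KO mice were Pkd1 fl/fl (7 males and 8 females), and Pkd1KO+ciliaKO mice were Pkd1 fl/fl and Kif3a fl/fl (9 males and 6 females). The noncystic controls, named wild type in the labels, thus also lost a copy of Pkd1 where Cre acted. Pkd1 encodes polycystin-1, whose loss leads to kidney cysts, and Kif3a encodes a motor subunit needed to build cilia, without which the Pkd1KO kidneys form far fewer cysts. The genotypes were compared within each sex, and each mouse is a replicate.

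Cyclic AMP is made from ATP by adenylyl cyclases when hormones such as vasopressin or parathyroid hormone act on receptors coupled to the G protein Gs. It is removed by phosphodiesterases. It releases the catalytic subunits of protein kinase A from their regulatory subunits, and the freed kinase phosphorylates CREB and its relatives, which bind the cyclic AMP response element of target genes. In polycystic kidneys a raised level of cyclic AMP is known to drive fluid secretion and proliferation, and the vasopressin receptor antagonist tolvaptan, which lowers it, is used in patients. The tables hold mRNA on ribosomes, so neither cyclic AMP nor the activity of any enzyme was measured.

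Some libraries stood apart from the rest. The total number of counts per mouse was between 80874556 and 132958186, with a median of 103070359. Counts were scaled by library size and the trimmed mean of M-values to CPM, a level that is comparable between mice but not between genes of unlike length. In the library labelled noncystic female replicate 5, Kif3a was at 6.69 CPM, where the other noncystic females were between 23.2 and 25.4 CPM. In the library labelled Pkd1KO+ciliaKO female replicate 6, Kif3a was at 20.7 CPM, where the others of that group were between 6.57 and 8.47 CPM. Both libraries thus go against their labels for the targeted gene, and each female result is also given without them where this changes a call. In males, Kif3a was between 4.90 and 7.45 CPM in Pkd1KO+ciliaKO mice and at 13.8 CPM or more in all others. Pkd1 mRNA was no full check of its label, since only exons 2 to 4 are removed and counts are per gene. The paper found deletion to be incomplete in DNA of kidney tissue, and its extent in the cells pulled down was not measured. Pkd1 was between 33.2 and 49.8 CPM in Pkd1KO males and between 36.3 and 84.9 CPM in noncystic males. The 4 males nearest to the females on the first principal component were noncystic male replicate 3, Pkd1KO male replicate 4 and Pkd1KO+ciliaKO male replicates 6 and 8, and the last 2 lay among the females. The Y-linked gene Ddx3y was at 45.5 CPM or more in all 24 males and at most 0.0622 CPM in the 21 females, so these mice match their labelled sex. Marker sums were largest for the proximal tubule, between 4198 and 10690 CPM over 6 genes, and between 1659 and 4539 CPM over 3 genes of the thick ascending limb. Such sums depend on the number and length of the listed genes, so they do not rank the cell types. No listed marker of podocytes, endothelium, smooth muscle, fibroblasts or macrophages was at 0 in any mouse. In such bulk samples, fewer cells of a type and less mRNA per cell cannot be told apart.

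The cyclic AMP response element is the reason to look at the starts of these genes, because several genes of the pathway are known to be targets of CREB themselves. RefSeq promoter windows (build GRCm38.p6, from 250 bases before to 50 bases after a transcript start) were at hand for 7 of the 10 genes, in 17 windows, and not for Adcy6, Pde3a and Crem. The full element, the palindrome TGACGTCA, was present in 588 of all 32851 windows (1.79%) and in 2 of the 17, which overlap and hold the same site in Prkar1a. The core of the element, TGACG on either strand (CGTCA on the other), was present in 6837 of all windows (20.8%) and in 5 of the 17 (29.4%), in the 3 genes Prkar1a, Prkaca and Pde1a. The palindrome holds the core on both strands and is counted in both. The windows of Pde4d, Adcy3, Adcy5 and Creb1 hold none of these letters. Pde4d had a single window of 300 bases in a gene that spans chr13:108449948-109953461, and the rest of it was not looked at. The sites are shown with their flanks, on the strand of the gene, with the element in capitals.
Prkar1a, chr11:109650889-109650918, plus strand, 49 bases before a start and inside the window of another: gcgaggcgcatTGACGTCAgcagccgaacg
Prkar1a, chr11:109650750-109650779, plus strand, 100 bases before a start: gttctagctagaTGACGacgggctaagggt
Prkar1a, chr11:109649200-109649229, plus strand, 151 bases before a start: tttgcttttattCGTCAgtgttaatacagt
Prkaca, chr8:83972846-83972875, plus strand, 120 bases before a start: gtctgcaactcgCGTCActcatccaggagc
Prkaca, chr8:83972960-83972989, plus strand, 6 bases before a start: gggctgcgggggCGTCAcggacagaggact
Pde1a, chr2:80039051-80039080, minus strand, 166 bases before a start: gtaacttcagccCGTCAttcctcagtaatt
A match of letters is a description of the window, and binding was not measured.

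The most abundant of the 10 genes per length were the kinase subunits, and the cyclase Adcy3 was the least abundant. In the 24 males, the median TPM was 199 for Prkar1a, the type I regulatory subunit that holds the kinase inactive, and 177 for Prkaca, the catalytic subunit. It was 91.4 for Pde1a, a phosphodiesterase stimulated by calcium and calmodulin, and 60.9 for Adcy6, a cyclase inhibited by calcium. It was 12.5 for Pde4d, a phosphodiesterase specific for cyclic AMP, 9.12 for Creb1 and 7.93 for Crem. These 7 genes were followed by Pde3a, a phosphodiesterase inhibited by cyclic GMP, at 4.07, Adcy5, the closest relative of Adcy6, at 3.30, and Adcy3, a cyclase known from olfactory and neuronal cilia, at 1.04. The order by median was the same in the 21 females, with 250.5 for Prkar1a, 178 for Prkaca, 124.5 for Pde1a, 92.0 for Adcy6, 19.1 for Pde4d, 12.4 for Creb1, 10.1 for Crem, 5.29 for Pde3a, 4.08 for Adcy5 and 2.09 for Adcy3. The TPM tables of the sexes were normalized separately, so levels are compared within a sex only.

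Many neighbours in that order were not separated by the mice. In males the ranges over mice did not overlap between Prkaca and Pde1a, between Adcy6 and Pde4d, and between Adcy5 and Adcy3. In females they did not overlap between Prkar1a and Prkaca and between Adcy6 and Pde4d. All other neighbours overlapped: Creb1 was above Crem in 17 of 24 males and in 17 of 21 females, and Pde3a was above Adcy5 in 20 of 24 males and in 16 of 21 females.

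Within its family, Adcy6 was the leading cyclase. It held a median of 67.6% (61.3% to 71.4% over mice) of the summed TPM of 9 cyclases in males and 73.1% (68.9% to 80.9%) in females. Adcy9, a widely expressed cyclase, held 17.5% and 12.2%. Adcy5 and Adcy3 held medians of 3.55% and 1.15% in males and 3.28% and 1.59% in females.

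**Figure D1:**
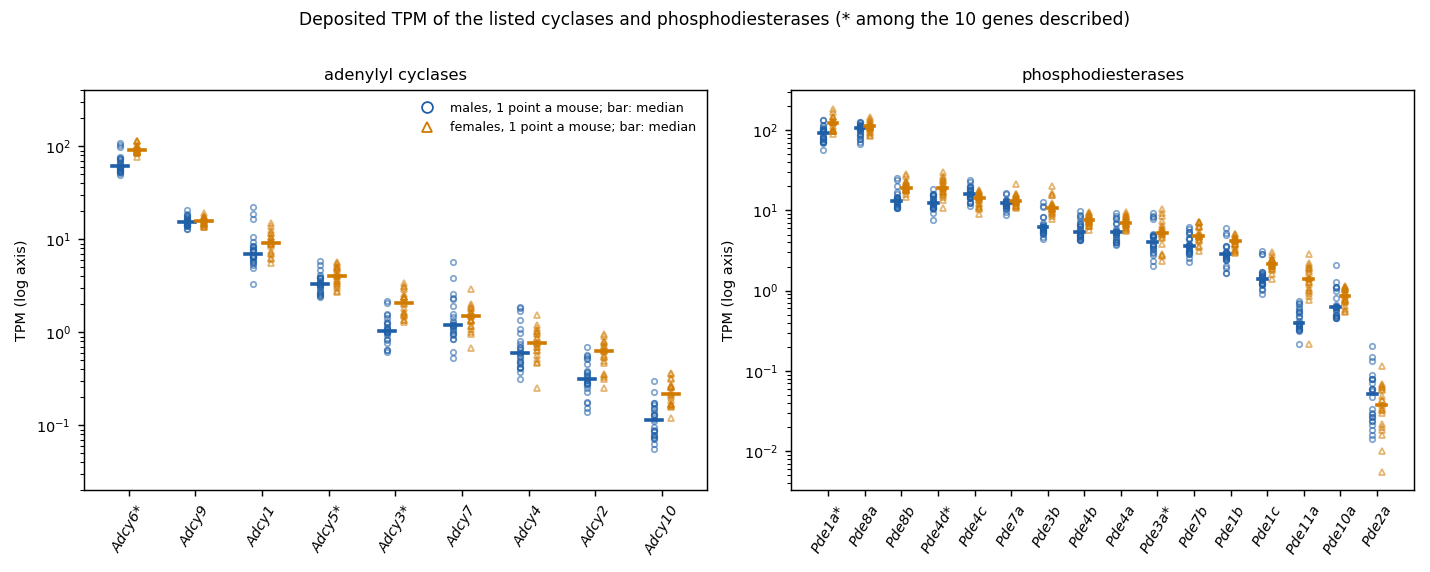
Deposited TPM (log axis) of the 9 listed adenylyl cyclases (left) and 16 listed phosphodiesterases (right) in each mouse, with males as blue circles, females as orange triangles and bars at the median of each sex; genes marked with an asterisk are among the 10. Adcy6 stands above the other cyclases, and Pde1a and Pde8a stand together above the other phosphodiesterases.

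Pde1a and Pde8a, a cyclic AMP phosphodiesterase of high affinity, together led the 16 phosphodiesterases. Pde1a held 33.0% and Pde8a 36.4% of their summed TPM in males, and the medians were 33.7% and 32.2% in females. Pde4d held 4.35% and 5.39% and Pde3a 1.54% and 1.57%, in males and females. Of the catalytic subunits, Prkaca held 82.0% in males and 80.3% in females, with Prkacb holding the rest. Prkar1a held 69.8% and 70.7% of the 4 regulatory subunits, followed by Prkar2a with 25.8% and 23.5%. Of the 3 related factors Creb1, Crem and Atf1, Atf1 was the most abundant, with 72.1% in males and 66.4% in females, where Creb1 held 14.6% and 17.7% and Crem 13.4% and 15.2%.

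Between genotypes, Pde4d was the 1 gene of the 10 that was called by edgeR. It was higher in Pkd1KO than in Pkd1KO+ciliaKO females, where 11.7% of all genes were called. Each pair of genotypes within a sex was tested with the quasi-likelihood test of edgeR over all protein-coding genes that passed the filter (15991 in males and 15968 in females), and a gene is called at an adjusted p (Benjamini-Hochberg) of at most 0.05. For comparison, counts at an unadjusted p under 0.05, calls by DESeq2 on the same counts, and calls by limma on log2(TPM + 1) are given. The 3 comparisons of a sex share their groups, so they are not independent of each other.

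In males, none of the 10 genes was called in any genotype comparison by edgeR, DESeq2 or limma. Between Pkd1KO and noncystic males, 6.3% of all genes were called by edgeR, 10.7% by DESeq2 and 3.91% by limma, and 0 of the 10 genes had an unadjusted p under 0.05, against 22.1% of all genes. Between Pkd1KO and Pkd1KO+ciliaKO males, 3.77%, 7.72% and 3.55% of all genes were called by the 3 tools, and 2 of the 10 genes, Pde1a and Creb1, had an unadjusted p under 0.05 (all genes 19.7%). Between Pkd1KO+ciliaKO and noncystic males, 8.89%, 13.5% and 7.49% of all genes were called, and Pde4d alone of the 10 had an unadjusted p under 0.05 (all genes 24.3%). The median absolute log2 fold change of the 10 genes was 0.06, 0.13 and 0.11 in these comparisons, and that of all genes was 0.14 in each.

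In females, Pde4d was the 1 gene of the 10 called by edgeR in any genotype comparison. Between Pkd1KO and noncystic females, 0 of the 10 were called by edgeR (all genes 3.34%) and 0 by limma (3.24%), 2 (Adcy3 and Pde4d) by DESeq2 (6.02%), and 4 (Adcy3, Pde4d, Prkaca and Crem) had an unadjusted p under 0.05 (16.4%). Between Pkd1KO and Pkd1KO+ciliaKO females, Pde4d was called by edgeR (all genes 11.7%), DESeq2 (16%) and limma (13.6%), and 4 genes (Pde4d, Adcy3, Pde1a and Crem) had an unadjusted p under 0.05 (27.7%). Between Pkd1KO+ciliaKO and noncystic females, 0 of the 10 were called by edgeR (all genes 2.54%, a count of 405 that fell to 8 on leaving out Pkd1KO+ciliaKO female replicate 2 or 3), 2 (Prkaca and Crem) by DESeq2 (8.69%) and 1 (Prkar1a) by limma (6.26%), and 3 (Prkaca, Crem and Pde3a) had an unadjusted p under 0.05 (21.4%). The median absolute log2 fold change of the 10 genes was 0.071, 0.214 and 0.146 in these comparisons, where that of all genes was 0.099, 0.145 and 0.130. With 1 called gene in 10 against 11.7% of all genes, the share of the 10 was near that of the background.

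**Figure D2:**
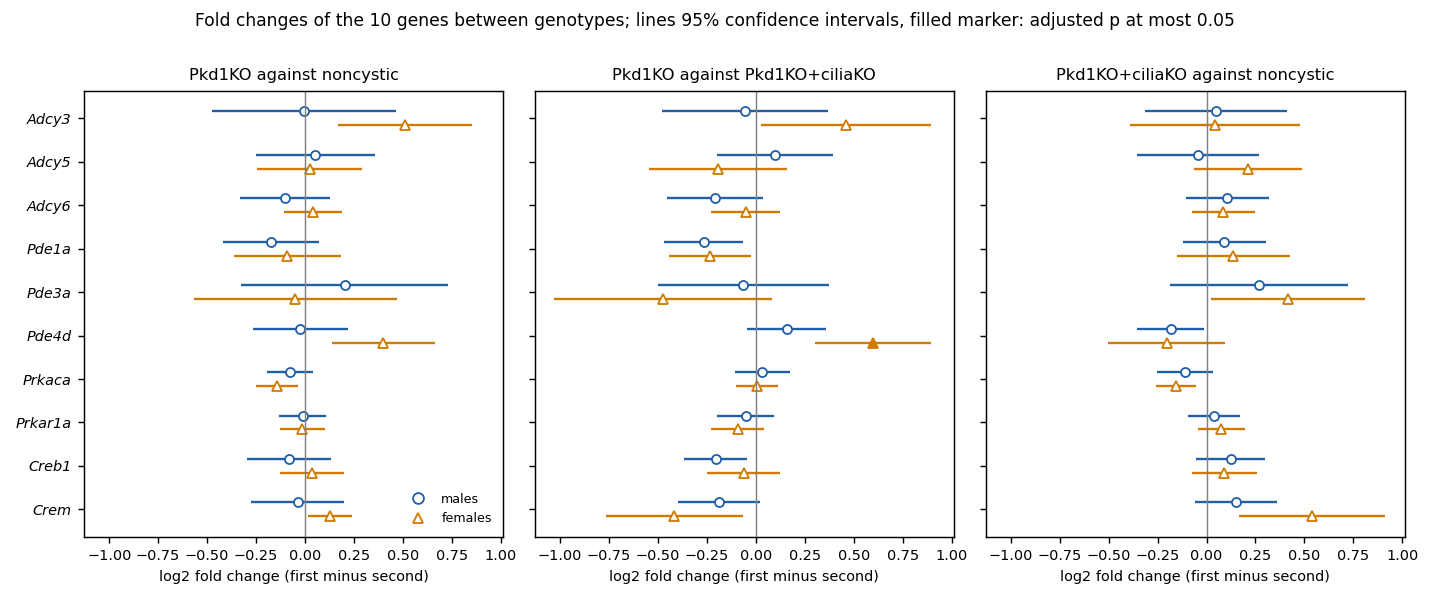
Log2 fold change of each of the 10 genes, first genotype minus second, in the 3 genotype comparisons (panels), with males as circles, females as triangles, lines as 95% confidence intervals of the edgeR fit and filled markers for an adjusted p of at most 0.05. Only Pde4d between Pkd1KO and Pkd1KO+ciliaKO females is filled, at 0.60 with an interval from 0.30 to 0.90.

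The difference of the genotype effect between the sexes was tested in 1 fit of all 45 mice over 15828 genes. None of the 10 genes was called by edgeR or DESeq2. For Pkd1KO against noncystic, 0.0126% of all genes were called by edgeR and 0.199% by DESeq2, and 1 of the 10 (Pde4d) had an unadjusted p under 0.05 (all genes 8.08%). For Pkd1KO against Pkd1KO+ciliaKO, 0.221% and 0.455% of all genes were called, and 1 (Pde4d) had an unadjusted p under 0.05 (7.94%). For Pkd1KO+ciliaKO against noncystic, 0.0316% and 0.133% of all genes were called, and 1 (Crem) had an unadjusted p under 0.05 (5.49%).

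**Figure D3:**
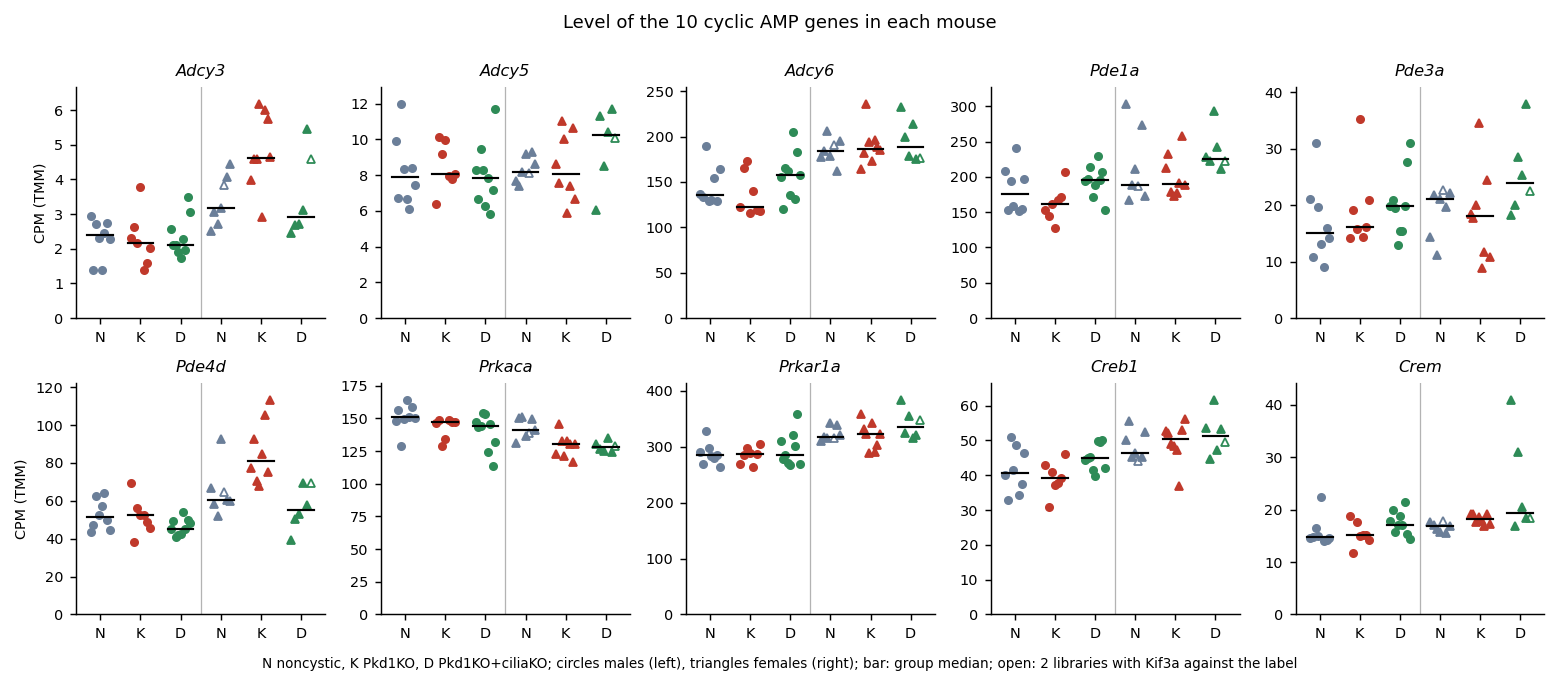
CPM of the 10 genes in each mouse, in males (circles, left of the grey line) and females (triangles, right), for noncystic (N), Pkd1KO (K) and Pkd1KO+ciliaKO (D) mice, with bars at the group medians and open symbols for the 2 libraries whose Kif3a goes against the label. In the Pde4d panel the Pkd1KO females reach from 67.6 to 113 CPM and the Pkd1KO+ciliaKO females from 39.2 to 69.6 CPM.

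Among the phosphodiesterases, Pde4d cleaves cyclic AMP alone and is itself activated by protein kinase A, as a known feedback. It was highest in the Pkd1KO females. In the 7 noncystic females it was at 67.0, 58.5, 52.1, 92.4, 64.6, 60.3 and 60.2 CPM. The 8 Pkd1KO females were at 77.2, 92.5, 70.3, 67.6, 84.5, 105, 75.2 and 113 CPM. The 6 Pkd1KO+ciliaKO females were at 39.2, 50.3, 53.1, 69.6, 57.6 and 69.2 CPM. Of the Pkd1KO females, 7 of 8 were above every Pkd1KO+ciliaKO female, and 4 of 6 Pkd1KO+ciliaKO females were below every Pkd1KO female, so the groups overlapped by little. The log2 fold change of Pkd1KO against Pkd1KO+ciliaKO females was 0.60 (SE 0.14, 95% confidence interval 0.30 to 0.90, adjusted p = 0.0127 by edgeR). The call was made in all 22 alternatives run, leaving out each mouse in turn among them, with log2 fold changes from 0.48 to 0.67 and adjusted p from 0.000819 to 0.0380. Without the 2 libraries whose Kif3a goes against the label, the log2 fold change was 0.67 (adjusted p = 0.0102).

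Against noncystic females, Pde4d in Pkd1KO females was 0.40 higher on the log2 scale (SE 0.13, interval 0.14 to 0.66, adjusted p = 0.0936 by edgeR), which did not pass. The groups overlapped, mainly through noncystic female replicate 4 at 92.4 CPM: 6 of 7 noncystic females were below every Pkd1KO female. Without that mouse the log2 fold change was 0.49 (adjusted p = 0.0200), and DESeq2 on all mice called it (0.40, adjusted p = 0.0412). Over its 23 alternatives the adjusted p was between 0.0200 and 0.208. Between Pkd1KO+ciliaKO and noncystic females the log2 fold change was -0.20 (SE 0.14, adjusted p = 0.424 by edgeR).

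In males, Pde4d was between 43.5 and 64.2 CPM (median 51.2) in noncystic, between 38.4 and 69.2 (median 52.3) in Pkd1KO and between 41.0 and 54.2 (median 45.3) in Pkd1KO+ciliaKO mice. All 3 groups overlapped. The log2 fold changes were -0.02 for Pkd1KO against noncystic, 0.16 for Pkd1KO against Pkd1KO+ciliaKO and -0.18 for Pkd1KO+ciliaKO against noncystic (adjusted p = 0.932, 0.376 and 0.174 by edgeR). The male minus the female effect was -0.44 (SE 0.18, adjusted p = 0.477 by edgeR) for Pkd1KO against Pkd1KO+ciliaKO and -0.42 (SE 0.17, adjusted p = 0.491) for Pkd1KO against noncystic, so a difference between the sexes was not shown.

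Several marker sums had unlike medians in Pkd1KO and Pkd1KO+ciliaKO females, but their ranges overlapped and they carry no test. In that order, the medians were 58.8 and 84.3 CPM for endothelium and 225.1 and 313.5 CPM for intercalated cells. For vascular smooth muscle they were 140.6 and 189.9 CPM. The sums of macrophages (3 genes) were between 56.1 and 110.2 CPM in Pkd1KO and between 34.1 and 61.1 CPM in Pkd1KO+ciliaKO females. Those of the thick ascending limb (3 genes) were between 2343 and 3929 and between 3131 and 4539 CPM. Those of principal cells (3 genes) were between 344 and 872 CPM and between 364 and 1093 CPM. The highest was in Pkd1KO+ciliaKO female replicate 1, which had the lowest Pde4d of all females. Replicate 4, with the next highest sum of that group (744.7 CPM), had the highest Pde4d of the group (69.6 CPM). The part of these markers in the Pde4d result was not tested. Over all 45 mice, after each sex's mean was subtracted, Plek2 was among the genes whose log2 level was most like that of Pde4d of 15827 compared (Pearson r = 0.713). These points share their libraries and groups, so the correlation is a description.

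Pde1a, the leading phosphodiesterase of the 3, was lowest in Pkd1KO males but did not pass the test. It was between 152 and 241 CPM (median 176) in noncystic, between 128 and 207 CPM (median 162) in Pkd1KO and between 152 and 229 CPM (median 196) in Pkd1KO+ciliaKO males. In females it was between 167 and 303 (median 188), between 172 and 258 (median 190.0) and between 211 and 293 CPM (median 225). The groups overlapped in every comparison. Pkd1KO against Pkd1KO+ciliaKO gave a log2 fold change of -0.27 in males (SE 0.096, adjusted p = 0.131 by edgeR) and -0.23 in females (SE 0.098, adjusted p = 0.134). In females it passed in 1 of 22 alternatives, without Pkd1KO female replicate 7 (-0.30, adjusted p = 0.0417, range from 0.0417 to 0.279).

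Pde3a varied widely between mice and was not called. It was between 9.03 and 35.2 CPM in males and between 8.87 and 37.9 CPM in females, and all genotypes overlapped. The largest of its log2 fold changes was -0.47 (SE 0.26, adjusted p = 0.256 by edgeR), for Pkd1KO against Pkd1KO+ciliaKO females. In Pkd1KO male replicate 4, Pde3a was at 35.2 CPM, the highest of all males, beside the highest sums in males of endothelium (273 CPM), vascular smooth muscle (441), fibroblasts (402) and macrophages (185). In Pkd1KO+ciliaKO female replicate 5, the highest of all mice, it was at 37.9 CPM beside a fibroblast sum of 381 CPM. In Pkd1KO female replicate 4 it was at 34.5 CPM beside the highest fibroblast sum in females (433). The vascular smooth muscle sums of these females were 195 and 209 CPM, within the ranges of their groups (169 to 317 and 93.5 to 319). The part of these markers in Pde3a was not tested.

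Among the cyclases, Adcy3 was highest in Pkd1KO females. It was between 2.51 and 4.44 CPM (median 3.17) in noncystic, between 2.92 and 6.18 CPM (median 4.63) in Pkd1KO and between 2.46 and 5.45 CPM (median 2.93) in Pkd1KO+ciliaKO females. Of the Pkd1KO females, 6 of 8 were above every noncystic female and 3 of 8 above every Pkd1KO+ciliaKO female. Against noncystic the log2 fold change was 0.51 (SE 0.16, interval 0.17 to 0.85, adjusted p = 0.101 by edgeR), which did not pass. It passed with DESeq2 (adjusted p = 0.0373) and without Pkd1KO female replicate 5 (0.59, adjusted p = 0.0289), with a range from 0.0289 to 0.181 over 23 alternatives. Against Pkd1KO+ciliaKO it was 0.46 (SE 0.21, adjusted p = 0.157 by edgeR).

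Adcy3 in males was between 1.38 and 2.95 CPM in noncystic, between 1.38 and 3.79 CPM in Pkd1KO and between 1.73 and 3.49 CPM in Pkd1KO+ciliaKO mice. The medians were 2.38, 2.16 and 2.11 CPM, and the log2 fold changes were -0.01 for Pkd1KO against noncystic, -0.05 for Pkd1KO against Pkd1KO+ciliaKO and 0.05 for Pkd1KO+ciliaKO against noncystic. Adcy3 shares 22.1% of its exon bases with Cenpo on the other strand, and the strand setting of the counting is not given in the sources used here, so part of its count may come from Cenpo.

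Adcy6, the cyclase best known for the response of the collecting duct to vasopressin, did not differ between genotypes beyond the spread of the mice. In males it was between 129 and 190.2 CPM in noncystic, between 116 and 173 CPM in Pkd1KO and between 120 and 205 CPM in Pkd1KO+ciliaKO mice. In females the medians were 184, 187 and 189 CPM, with all mice between 162 and 236 CPM. The largest difference was -0.21 on the log2 scale (SE 0.12, adjusted p = 0.334 by edgeR), for Pkd1KO against Pkd1KO+ciliaKO males. Without the 4 males nearest to the females it was -0.08 (adjusted p = 0.782): 2 of them, Pkd1KO+ciliaKO male replicates 6 and 8, were at 205 and 183 CPM, the highest of their group.

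Adcy5 was not called between genotypes, though its median in Pkd1KO+ciliaKO females was 10.25 CPM, against 8.19 in noncystic and 8.08 in Pkd1KO females. It was between 5.80 and 11.98 CPM in males and between 5.85 and 11.7 CPM in females, and its log2 fold changes were between -0.19 and 0.21 with the ranges overlapping in each comparison. The lowest adjusted p of the 6 was 0.363 by edgeR, for Pkd1KO+ciliaKO against noncystic females (0.21, interval -0.06 to 0.49).

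Of the kinase subunits, Prkaca was slightly lower in females of both knockouts than in noncystic females, without passing the test. It was between 131 and 151 CPM (median 141) in noncystic, between 116 and 146 CPM (median 130.3) in Pkd1KO and between 125 and 135 CPM (median 128) in Pkd1KO+ciliaKO females. Of the noncystic females, 6 of 7 were above every Pkd1KO+ciliaKO female, and 5 of 6 Pkd1KO+ciliaKO females were below every noncystic female. The log2 fold change was -0.15 (SE 0.048, interval -0.26 to -0.05, adjusted p = 0.0849 by edgeR) for Pkd1KO+ciliaKO and -0.14 (SE 0.052, adjusted p = 0.152) for Pkd1KO, both against the same noncystic females. DESeq2 called the former (adjusted p = 0.0305), the 1 of 21 alternatives that did. On log2(TPM + 1) the former was -0.03 (adjusted p = 0.710 by limma). In males Prkaca was between 114 and 164 CPM and its log2 fold changes were -0.08, 0.03 and -0.11.

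Prkar1a differed little between genotypes. It was between 263 and 358 CPM in males and between 288 and 383 CPM in females, and its log2 fold changes between genotypes were between -0.09 and 0.07 on the CPM scale. The confidence intervals of all 6 comparisons lay within -0.23 and 0.20. On the TPM scale, Prkar1a was called between Pkd1KO+ciliaKO and noncystic females by limma (0.20 on log2(TPM + 1), adjusted p = 0.0361), where edgeR gave 0.07 (adjusted p = 0.473) and the other alternatives did not call it (highest adjusted p = 0.673).

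Of the transcription factors, Creb1 was not called between genotypes. It was between 33.0 and 50.9 CPM (median 40.7) in noncystic, between 30.8 and 46.1 CPM (median 39.2) in Pkd1KO and between 39.8 and 50.05 CPM (median 44.9) in Pkd1KO+ciliaKO males. The log2 fold change of Pkd1KO against Pkd1KO+ciliaKO males was -0.21 (SE 0.076, adjusted p = 0.144 by edgeR) and was -0.15 (adjusted p = 0.366) without the 4 males nearest to the females. In females it was between 37.0 and 61.5 CPM over all genotypes, with log2 fold changes from -0.06 to 0.09.

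Crem gives rise to activators and, from an internal promoter, to the repressor ICER that cyclic AMP itself induces, and counts per gene do not tell these forms apart. In the 6 Pkd1KO+ciliaKO females it was at 40.9, 16.9, 31.0, 20.4, 18.4 and 18.3 CPM. The 7 noncystic females were between 15.5 and 17.8 CPM (median 16.9) and the 8 Pkd1KO females between 16.9 and 19.2 CPM (median 18.3). High values in replicates 1 and 3 thus set the mean of the Pkd1KO+ciliaKO females, and 5 of 6 were above every noncystic female. Against noncystic the log2 fold change was 0.54 (SE 0.18, interval 0.16 to 0.91, adjusted p = 0.0988 by edgeR), which did not pass. It passed with DESeq2 (adjusted p = 0.0346) and with the 3 genotypes in 1 fit (adjusted p = 0.0487), 2 of 21 alternatives whose adjusted p reached from 0.0346 to 0.209. For Pkd1KO against Pkd1KO+ciliaKO females the log2 fold change was -0.42 (SE 0.17, adjusted p = 0.113 by edgeR). Without Pkd1KO+ciliaKO female replicate 1 these log2 fold changes were 0.33 against noncystic (adjusted p = 0.129) and -0.21 (adjusted p = 0.265).

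Of 10 listed genes that CREB is known to induce, 7 were higher and 3 lower in Pkd1KO+ciliaKO than in noncystic females. Their median log2 fold change was 0.39 (all genes 0.009). In males the same comparison also gave 7 higher and 3 lower, with a median of 0.67 (all genes 0.01). Crem itself was at 0.15 there (adjusted p = 0.381 by edgeR). In females the smallest adjusted p of the 10 was 0.0708 (Nr4a2, 1.10, by edgeR), and Sik1 was at -0.30 (adjusted p = 0.124). The relatives of Nr4a2 are given by mouse, chosen after their values were seen. Nr4a3, an orphan nuclear receptor, was at 3.69 CPM in Pkd1KO+ciliaKO female replicate 1 and 4.04 CPM in replicate 3, and between 0.312 and 0.888 CPM in the other 4. Its relative Nr4a1 was at 16.3 CPM in replicate 1 and 70.0 CPM in replicate 3, but replicate 5, with Crem at 18.4 CPM, was at 34.6 CPM. The principal cell markers were also highest in replicate 1 (1093 CPM), and their part in the Crem values was not tested. In males, Crem was between 11.7 and 22.5 CPM over all genotypes, with log2 fold changes of -0.04, -0.19 and 0.15.

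Without either knockout, several of the 10 genes were lower in males than in females. Noncystic males and females were compared over 15828 genes, of which 27.5% were called by edgeR and 30.9% by DESeq2. Of the 10, 3 were called by edgeR and 3 by DESeq2, each lower in males, and 5 had an unadjusted p under 0.05 (all genes 38.6%). The share was near that of all genes. The log2 fold change was below 0 in 9 of 10, with a median of -0.18, where that of all genes was -0.01.

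Adcy6 had the smallest adjusted p of the 10 between the sexes. It was between 129 and 190.2 CPM (median 135) in noncystic males and between 162 and 206 CPM (median 184) in noncystic females, and 6 of 8 males were below every female. Males minus females gave -0.32 on the log2 scale (SE 0.084, interval -0.50 to -0.15, adjusted p = 0.00793 by edgeR), and it was called in all 22 alternatives (adjusted p from 0.000371 to 0.0188). The highest male, replicate 3 at 190.2 CPM, is the one that lay nearest to the females over all genes.

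Adcy3 and Prkar1a were called too, but with less margin. Adcy3 had a log2 fold change of -0.56 (SE 0.18, adjusted p = 0.0258 by edgeR), and 5 of 8 males were below every female. Its call was lost without noncystic female replicate 5, whose Kif3a goes against the label (-0.53, adjusted p = 0.0504), without replicate 6 (-0.51, adjusted p = 0.0553) and without replicate 7 (-0.49, adjusted p = 0.0645). Prkar1a had a log2 fold change of -0.15 (SE 0.053, adjusted p = 0.0390 by edgeR), with 7 of 8 males below every female. Its call was lost on leaving out any of males 1, 2, 5, 6, 7 and 8 or females 2, 4, 5, 6 and 7 (adjusted p from 0.0536 to 0.0773). Pde4d (-0.29, adjusted p = 0.0737) and Creb1 (-0.21, adjusted p = 0.102) did not pass, and both passed without noncystic male replicate 3 (-0.33, adjusted p = 0.0296, and -0.26, adjusted p = 0.0328). Pde4d passed also without male replicate 6 (adjusted p = 0.0368) or female replicate 3 (adjusted p = 0.0421). Over 22 alternatives the adjusted p was between 0.0296 and 0.183 for Pde4d and between 0.0328 and 0.205 for Creb1. Prkaca alone was higher in males (0.10, adjusted p = 0.227).

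At least 1 other gene of the pathway was called by edgeR in each genotype comparison. The share called was above that of all genes in some comparisons and below it in others. A list of 81 further genes (cyclases, G proteins, receptors coupled to Gs, phosphodiesterases, kinase subunits and inhibitors, anchoring proteins, other effectors, CREB relatives and coactivators, and known CREB targets) was taken, of which 76 were tested in males and 77 in females. Adcy8, Drd1, Bves and Popdc3 were tested in neither. Where called genes are named, they are at most 3 of the smallest p in each comparison.

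**Figure D4:**
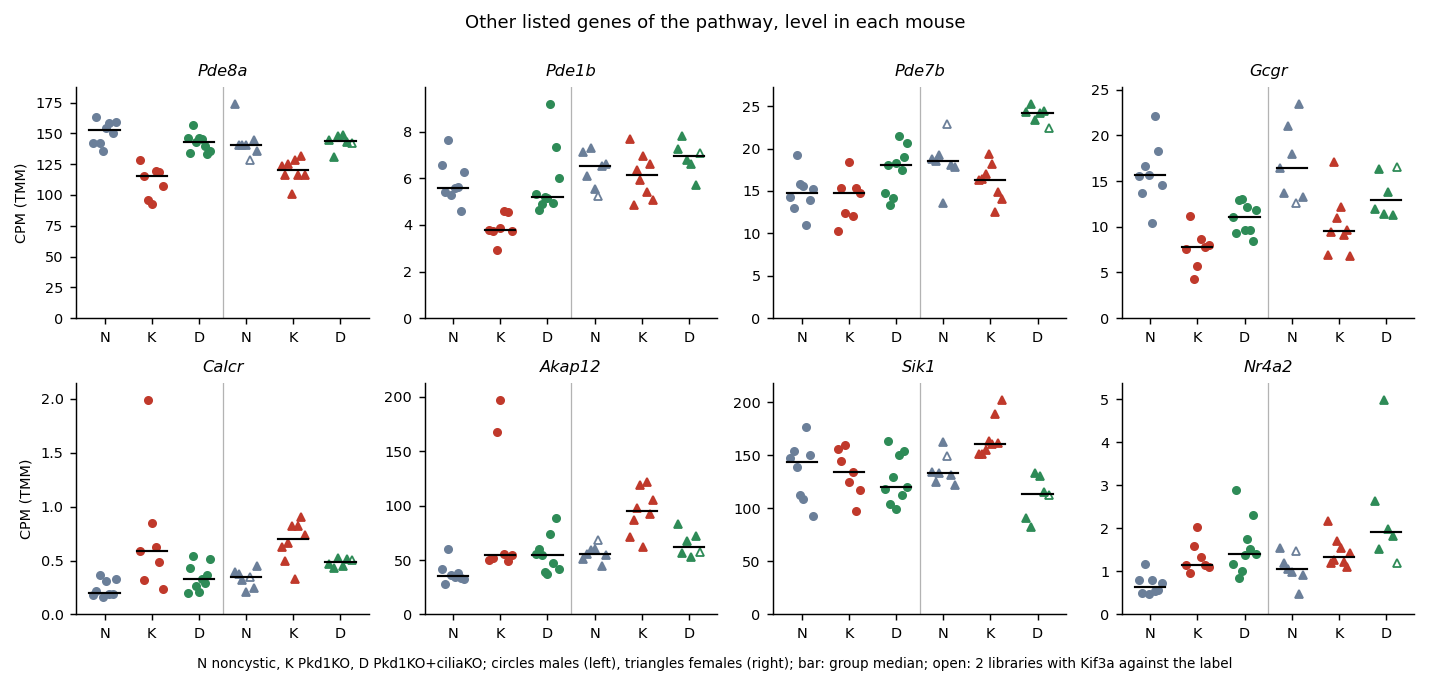
CPM of 8 other genes of the pathway in each mouse, all among those of smallest p in a genotype comparison, in males (circles, left) and females (triangles, right), for noncystic (N), Pkd1KO (K) and Pkd1KO+ciliaKO (D) mice, with bars at the group medians and open symbols for the 2 libraries whose Kif3a goes against the label. Pde8a in Pkd1KO males lies between 92.9 and 128 CPM, below all other males.

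Between Pkd1KO and noncystic males, 10 of the 76 (13.2%) were called, 3 higher and 7 lower, where 6.3% of all genes were called, 648 higher and 360 lower. The list had a median log2 fold change of -0.004 and all genes one of -0.008. Of the 13 phosphodiesterases, 3 fell (Pde8a, Pde1b and Pde1c) and none rose. Pde8a, which with Pde1a led the family, was between 136 and 163 CPM in noncystic and between 92.9 and 128 CPM in Pkd1KO males, without overlap (log2 fold change -0.44, SE 0.071, adjusted p = 0.00144 by edgeR). Pde1b, the sister of Pde1a, was between 4.614 and 7.67 CPM in noncystic and between 2.91 and 4.606 CPM in Pkd1KO males, so that the ranges just missed each other (-0.60, SE 0.12, adjusted p = 0.00730). Gcgr, the glucagon receptor, fell as well (-1.07, SE 0.18, adjusted p = 0.00190).

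Between Pkd1KO and Pkd1KO+ciliaKO males, 2 of the 76 (2.63%) were called, both lower (all genes 3.77%, with 318 higher and 285 lower), with a median log2 fold change of -0.09 over the list and 0.01 over all genes. They were Pde8a and Pde1b, 2 of the 3 phosphodiesterases called against noncystic males, in a comparison that shares the Pkd1KO mice. Pde8a was between 133.2 and 157 CPM in Pkd1KO+ciliaKO males, above every Pkd1KO male (-0.36, SE 0.067, adjusted p = 0.00579 by edgeR). Pde1b was between 4.66 and 9.20 CPM there (-0.59, SE 0.15, adjusted p = 0.0334). The call of Pde1b was lost without Pkd1KO male replicate 1, 2, 3 or 7 or Pkd1KO+ciliaKO male replicate 8 (adjusted p from 0.0572 to 0.0643).

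Between Pkd1KO+ciliaKO and noncystic males, 3 of the 76 (3.95%) were called, 2 higher and 1 lower (all genes 8.89%, with 901 higher and 521 lower), with a median of 0.04 over the list. Nr4a2, an orphan nuclear receptor and CREB target, rose from a median of 0.643 to 1.40 CPM (1.17, SE 0.24, adjusted p = 0.00496 by edgeR). Akap6, an anchor of protein kinase A, rose (1.14, SE 0.27, adjusted p = 0.0119), and Gcgr fell (-0.54, SE 0.12, adjusted p = 0.0107).

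Between Pkd1KO and noncystic females, 5 of the 77 (6.49%) were called, 3 higher and 2 lower (all genes 3.34%, with 322 higher and 211 lower), with a median of -0.05 over the list. Akap12, an anchor also named gravin, rose from between 44.3 and 68.4 CPM to between 62.2 and 122 CPM (0.75, SE 0.13, adjusted p = 0.00309 by edgeR). Calcr, the calcitonin receptor, rose (1.00, SE 0.22, adjusted p = 0.0175). Pde8a fell here as well (-0.26, SE 0.066, adjusted p = 0.0377), but its call was lost on leaving out any of 9 mice (adjusted p from 0.0527 to 0.0762): noncystic female replicates 1, 2, 3, 6 and 7 and Pkd1KO female replicates 1, 2, 4 and 8.

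Between Pkd1KO and Pkd1KO+ciliaKO females, where Pde4d was called, 11 of the 77 (14.3%) were called, 3 higher and 8 lower, where 11.7% of all genes were called, 1126 higher and 743 lower. The share was near that of all genes. The median log2 fold change was -0.17 over the list and -0.01 over all genes. Of the 13 other phosphodiesterases, 3 fell (Pde7b, Pde8a and Pde10a) and none rose, and 12 of 13 had a log2 fold change below 0. The same held for 53 of all 77 genes of the list. In males this comparison had 11 of the 13 phosphodiesterases and 52 of the 76 listed genes below 0. Pde7b, which cleaves cyclic AMP, was between 12.6 and 19.4 CPM in Pkd1KO and between 22.4 and 25.3 CPM in Pkd1KO+ciliaKO females, without overlap (-0.58, SE 0.084, adjusted p = 0.000802 by edgeR). Sik1, a kinase that holds CREB coactivators out of the nucleus and is itself a CREB target, was between 151 and 202 CPM and between 82.3 and 133.4 CPM (0.59, SE 0.11, adjusted p = 0.00311). The receptor Adrb1 fell (-0.65, SE 0.14, adjusted p = 0.00749).

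Between Pkd1KO+ciliaKO and noncystic females, 1 of the 77 (1.3%) was called (all genes 2.54%, with 107 higher and 298 lower), with a median of 0.12 over the list and 0.01 over all genes. It was Pde7b (0.38, SE 0.090, adjusted p = 0.0411 by edgeR). Its call was lost on leaving out any of 9 mice (adjusted p from 0.0514 to 0.0881): noncystic female replicates 2, 3, 6 and 7 and Pkd1KO+ciliaKO female replicates 1, 2, 3, 4 and 5. For the 3 differences between the sexes, 0 of 76 genes of the list were called by edgeR and 0 by DESeq2, and 4, 5 and 2 had an unadjusted p under 0.05 (Pkd1KO against noncystic, Pkd1KO against Pkd1KO+ciliaKO, Pkd1KO+ciliaKO against noncystic).

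Between noncystic males and females, 21 of the 76 (27.6%) were called, 9 higher and 12 lower in males, with a share near that of all genes (27.5%, with 2429 higher and 1924 lower) and a median of -0.08 over the list. Abcc4, which exports cyclic AMP from cells, was between 37.7 and 63.3 CPM in males and between 85.9 and 114 CPM in females (-0.92, SE 0.095, adjusted p = 1.83e-06 by edgeR). Pde11a was lower in males (-1.62, SE 0.23, adjusted p = 5.93e-05). Neither of these genes overlapped between the sexes.

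A few genes of the start of the pathway, named after their values were seen, could not be read with confidence. Avpr2, the vasopressin V2 receptor, was at most 0.175 CPM in any mouse, and 81.3% of its exon bases are shared with Arhgap4. Gnas, which encodes the Gs alpha subunit, was between 6.27 and 10.8 CPM and shares 21.6% of its exon bases with other genes. Reads from shared bases can be left out or split by the counting, so these levels are uncertain. Pth1r, the parathyroid hormone receptor, was between 245 and 878 CPM.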

How the data were processed

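Ribosome-bound RNA of 45 kidneys was sequenced after ribosomal depletion (150 bp paired-end reads). Per the authors, the deposited gene counts came from featureCounts 2.0.0, after trimming by fastp 0.20.0 and alignment by STAR 2.7.9 (build GRCm38.p6). The deposited TPM values were made by the authors for each sex in a separate table. The 10 genes and all lists were chosen with earlier results of these data known.

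Groups came from the sample labels. A protein-coding gene was kept in a sex if 20% or more of its mice had 6 or more counts, and kept genes were tested with the edgeR 4.0.16 quasi-likelihood test (R 4.3.3) with trimmed-mean scaling and Benjamini-Hochberg adjustment, without covariates. Differences between the sexes were an interaction in 1 fit of all mice. The scripts were tested on simulated data. Alternatives were DESeq2 1.42.0, limma 3.58.1 on log2(TPM + 1), other scalings and filters, and leaving out libraries. Depth was between 80874556 and 132958186 counts, and 3 counts were 0.0371 CPM in the smallest library. P-values set the difference between groups against the spread between mice. All 10 genes are named, with up to 3 other called pathway genes of smallest p per comparison, Pkd1, Kif3a and the genes most like Pde4d, except items that are not reported here. Any further gene was picked with its values in view. Marker and motif counts carry no test.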

Additional observations from a re-analysis of the deposited data

Results flagged for a closer look

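Each of the 10 genes was checked in each of the 6 groups of mice, and in 6 of these 60 sets of values 1 mouse stood apart from the rest of its group by a gap test, where chance gives about 1 in 20. The sets share their mice. Adcy6 was at 236.1 CPM in Pkd1KO female replicate 3 (next 195.8). Pde3a was at 35.25 CPM in Pkd1KO male replicate 4 (next 20.86), and Pde4d at 92.43 CPM in noncystic female replicate 4 (next 67.03). Prkaca was lowest in noncystic male replicate 3, at 128.8 CPM (next 147.8). Creb1 was lowest in Pkd1KO female replicate 6, at 37.02 CPM (next 47.32), and Crem was at 22.45 CPM in noncystic male replicate 5 (next 16.49).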

How the results depend on the processing

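Of 1810 values of the 10 genes under an alternative, 1777 stayed on their side of the threshold, 15 newly passed and 18 no longer passed. The sign changed in 93 of the 1777, none of them called. Of 414 of the other named or called pathway genes, 380 kept sign and side and 34 no longer passed. No called value changed sign. Causes were not tested.

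With DESeq2, 2 of the 10 genes were called between Pkd1KO and noncystic females and 2 between Pkd1KO+ciliaKO and noncystic females. In the latter, limma called 1 and the 3 genotypes in 1 fit called 1. Between noncystic males and females, 3 of the 10 were called, 1 without the library against its Kif3a label and 5 without the male nearest to the females. Leaving out 1 mouse gave 0 to 1 for Pkd1KO against noncystic females, 1 to 2 for Pkd1KO against Pkd1KO+ciliaKO females, 1 to 5 between the sexes, and 0 elsewhere.

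Of the other pathway genes, DESeq2 called 7 between Pkd1KO and Pkd1KO+ciliaKO males, 6 between Pkd1KO+ciliaKO and noncystic males, 8 between Pkd1KO and noncystic females and 5 between Pkd1KO+ciliaKO and noncystic females. Limma called 4 between Pkd1KO and noncystic males, 4 between Pkd1KO and Pkd1KO+ciliaKO males and 6 between Pkd1KO+ciliaKO and noncystic females. With 3 genotypes in 1 fit, 6 were called between Pkd1KO and Pkd1KO+ciliaKO males and 2 between Pkd1KO+ciliaKO and noncystic females. Without the libraries against their Kif3a label, 3 were called in the latter. Without the males nearest to the females, 7 were called between Pkd1KO+ciliaKO and noncystic males. Leaving out 1 mouse gave 7 to 10, 1 to 4 and 3 to 7 in the male comparisons (Pkd1KO against noncystic, Pkd1KO against Pkd1KO+ciliaKO, Pkd1KO+ciliaKO against noncystic), 2 to 7, 8 to 14 and 0 to 2 in the female ones, and 15 to 31 between the sexes.

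Same-numbered mice did not deviate together as a rule (correlations from -0.329 to 0.363), and a pairing by number was not shown. A partial pairing was not tested. At most 2 mice per comparison correlated best with their own number. With the replicate number as a block, 1 of the 10 genes was called between noncystic males and females. Under the block, 6, 0 and 2 other pathway genes were called in the male comparisons and 1, 4 and 0 in the female ones, in the order above.

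Over all genes, DESeq2, the block or limma moved several counts by over 1.5 times. Between Pkd1KO+ciliaKO and noncystic females, 405 became 1280 with DESeq2, 1000 with limma, 100 with the block and 926 without the libraries against their Kif3a label. Leaving out 1 mouse, it became 8 without Pkd1KO+ciliaKO female replicate 2 or 3, 13 without replicate 4, 86, 101, 89 and 104 without noncystic female replicates 2, 3, 6 and 7, and 746 without replicate 5. In the other female comparisons, 533 became 962 (DESeq2) and 294 (block) against noncystic, and 1869 became 612 (block) against Pkd1KO+ciliaKO. In males, Pkd1KO against noncystic went from 1008 to 1640 (DESeq2) and to 0.62 times as many (limma), Pkd1KO against Pkd1KO+ciliaKO from 603 to 1234 (DESeq2), 170 (block) and 929 (1 fit), and Pkd1KO+ciliaKO against noncystic from 1422 to 2157 (DESeq2), 764 (block) and 2240 without the males nearest to the females. For the differences between the sexes, 2, 35 and 5 became 29, 72 and 21 with DESeq2, and 0, 22 and 3 with the block. Without the males nearest to the females the counts for both knockouts against noncystic became 0 (Pkd1KO) and 20 (Pkd1KO+ciliaKO), and without the libraries against their Kif3a label 1 and 2. Leaving out 1 mouse also took 1422 to 2359 (noncystic male replicate 3), 533 to 349 (noncystic female replicate 6) and 1869 to 1241 (Pkd1KO+ciliaKO female replicate 3). Limma on TPM was not run where the sexes' tables would be joined. Depth limits the lowest genes, such as Avpr2, which was at 0 CPM in some mice.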
